A study of Mus musculus with 12 samples.

Results

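The genes described here are 34 genes named for ribosome biogenesis and as targets of the transcription factor Myc, Myc itself included. They were taken from the array's probe annotation by symbol, with the row of highest mean where a gene had several. Of the 34, 32 were measured and passed the filter on low values, out of 16860 genes tested. The other two, Fbl and Tsr1, lie on rows annotated with a further gene each and are not described.

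Ribosomes are built in the nucleolus, where RNA polymerase I transcribes the precursor of the large ribosomal RNAs. Small nucleolar ribonucleoproteins (snoRNPs) modify this RNA, and assembly factors cut and fold it into the small and the large subunit. Myc raises transcription of many of these genes in growing cells, including blood progenitors, and also of enzymes that make polyamines and nucleotides.

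The cells were mouse bone marrow cells enriched for Kit, with floxed Tet2 alleles and the tamoxifen-activated recombinase CreER, and all of them expressed AML1-ETO, a fusion protein found in leukaemia, from a retrovirus that also gave GFP. The Tet2 enzyme oxidises methylated cytosine in DNA. Cells kept in culture were given 200 nM 4-hydroxytamoxifen (4-OHT), which deletes Tet2 (Tet2-/-), or ethanol (Tet2fl/fl), for 2 passages (4 days). Immature myeloid cells, sorted as positive for GFP and CD16/32 and negative for CD11b and Gr1, gave the RNA at passage 2 and passage 10. Each of the 4 groups has 3 arrays. Nothing in the labels ties the 3 replicates to separate cultures, and p-values then measure only the spread between these samples, which may be technical. No group of untreated cells without AML1-ETO was analysed here, and in the genotype comparisons the deletion of Tet2 cannot be told apart from 4-OHT and Cre activity. Passage goes with the time since treatment. In the Tet2-/- passage difference and the interaction, passage therefore cannot be told apart from time since 4-OHT and Cre activity. In both genotypes passage also goes with the time of collection.

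The deposited values are log2 intensities normalized across arrays, with array medians of 5.57 to 5.68, and the number of arrays limits the precision. Arrays of 1 group correlated at 0.984 to 0.991 over all rows. Of the sorting markers, Fcgr3 (CD16) lay between 10.57 and 11.13, Itgam (CD11b) between 7.04 and 8.78 and Ly6g (part of Gr1) between 4.77 and 7.61, where the filter on low values stood at 4.70. Itgam and Ly6g were therefore above that filter on every array. Ly6c1, a further gene on the list drawn up for the sorted cells, lay below the filter on Tet2fl/fl p2 replicate 1 (4.48) and Tet2-/- p10 replicate 1 (4.32). On the other arrays it lay above the filter. The filter is a percentile of row means, so a value above it does not show expression. Values after ± are standard errors from limma with n = 3 arrays per group, and differences are in log2 units.

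Promoters are shown because Myc binds DNA at the E-box CACGTG. RefSeq promoter windows of assembly GRCm38.p6, with 250 bases before and 50 from the annotated start on, were found for 27 of the 34 genes, in 30 windows. The windows of the 4 genes that fell between passages in Tet2-/- cells without a replicate block (a term in the fit for the replicate number) come first, and hold no E-box. They are Nop56 (chr2:130274162-130274461, plus strand), Nop58 (chr1:59684756-59685055, plus strand), Nop14 (chr5:34660099-34660398, minus strand) and Gnl3 (chr14:31019082-31019381, minus strand).
Nop56: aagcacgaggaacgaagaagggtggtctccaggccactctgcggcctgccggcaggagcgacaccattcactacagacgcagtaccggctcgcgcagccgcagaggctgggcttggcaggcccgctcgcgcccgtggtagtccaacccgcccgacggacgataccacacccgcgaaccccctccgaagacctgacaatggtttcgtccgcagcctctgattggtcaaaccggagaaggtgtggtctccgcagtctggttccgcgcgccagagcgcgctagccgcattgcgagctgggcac
Nop58: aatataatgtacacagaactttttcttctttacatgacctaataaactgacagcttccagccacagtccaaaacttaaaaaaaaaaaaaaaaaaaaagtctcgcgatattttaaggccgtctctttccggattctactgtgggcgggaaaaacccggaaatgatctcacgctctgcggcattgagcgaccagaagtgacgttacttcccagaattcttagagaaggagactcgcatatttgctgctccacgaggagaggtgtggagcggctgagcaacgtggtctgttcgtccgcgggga
Nop14: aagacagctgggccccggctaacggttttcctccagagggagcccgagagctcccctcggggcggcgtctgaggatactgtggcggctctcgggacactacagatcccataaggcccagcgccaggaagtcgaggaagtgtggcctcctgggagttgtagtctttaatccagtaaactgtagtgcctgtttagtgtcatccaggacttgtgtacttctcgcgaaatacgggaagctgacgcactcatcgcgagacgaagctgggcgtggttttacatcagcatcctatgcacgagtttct
Gnl3: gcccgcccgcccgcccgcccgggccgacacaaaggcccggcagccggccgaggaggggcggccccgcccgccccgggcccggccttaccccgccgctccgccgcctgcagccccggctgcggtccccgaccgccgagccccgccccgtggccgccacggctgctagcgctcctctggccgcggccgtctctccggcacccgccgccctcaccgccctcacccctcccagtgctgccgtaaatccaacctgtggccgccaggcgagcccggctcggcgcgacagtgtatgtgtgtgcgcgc
The windows of Wdr43 (chr17:71615965-71616264, plus strand), Mybbp1a (chr11:72441077-72441376, plus strand) and Utp20 (chr10:88826765-88827064, minus strand) show the E-box, in capitals, after the start. These windows were picked as those with an E-box among genes that were lower at passage 10, so the fall of these genes was set by the choice. Utp20 and Mybbp1a were lower in Tet2-/- cells with the replicate block and Wdr43 in the mean of both genotypes. The other measured genes with an E-box, Nop2 (-0.11, adjusted p = 0.753) and Pes1 (-0.20, 0.217), did not pass in Tet2-/- cells. The first letter of the E-box is base 18 in Wdr43, 41 in Mybbp1a and 38 in Utp20, with the annotated start as base 1.
Wdr43: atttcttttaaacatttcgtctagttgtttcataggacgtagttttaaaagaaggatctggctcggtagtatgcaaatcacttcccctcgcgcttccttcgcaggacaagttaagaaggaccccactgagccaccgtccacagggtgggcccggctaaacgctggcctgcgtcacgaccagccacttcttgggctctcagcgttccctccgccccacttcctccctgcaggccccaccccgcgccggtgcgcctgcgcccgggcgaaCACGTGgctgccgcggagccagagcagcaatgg
Mybbp1a: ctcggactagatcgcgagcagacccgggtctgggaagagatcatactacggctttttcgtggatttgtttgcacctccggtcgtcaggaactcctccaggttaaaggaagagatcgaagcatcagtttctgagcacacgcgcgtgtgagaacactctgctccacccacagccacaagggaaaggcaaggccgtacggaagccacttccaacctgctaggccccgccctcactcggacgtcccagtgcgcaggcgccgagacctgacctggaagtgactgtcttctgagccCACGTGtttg
Utp20: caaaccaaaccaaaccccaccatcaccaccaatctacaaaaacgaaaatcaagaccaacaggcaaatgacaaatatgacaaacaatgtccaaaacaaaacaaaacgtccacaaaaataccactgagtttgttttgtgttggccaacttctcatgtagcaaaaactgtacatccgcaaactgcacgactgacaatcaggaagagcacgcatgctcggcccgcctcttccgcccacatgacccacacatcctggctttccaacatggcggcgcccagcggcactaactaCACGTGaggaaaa

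The E-box CACGTG, which reads the same on both strands, was present in 6 of the 30 windows (20.0%), those of Nop2, Utp20, Pes1, Mybbp1a, Tsr1 and Wdr43. Of all 32851 windows of the same length, 7.15% held it. The E-box began after the start in 5 of the members' 30 windows (16.7%) and in 1.08% of all windows. Among windows with an E-box these are 5 of 6 for the members and 15.2% of all 2349. The variant CACGCG, or CGCGTG on the other strand, was present in 33.3% of the members' windows and 9.27% of all. The ETS-type motif CCGGAAG, or CTTCCGG on the other strand, was in 30% and 8.86%. The E-box and CACGCG share the letters CACG, and a window can hold more than 1 motif. The members' windows were rich in the pair CG, with a median of 21.5 pairs per window against 7.0 over all windows, so shares of motifs that hold CG differ in base composition as well. The passage difference in Tet2-/- cells had a median of -0.44 over the 5 measured genes with an E-box (-0.54 to -0.11). It was -0.32 over the 21 measured genes with a window and no E-box (-0.75 to 0.31), a range that holds the first. In Tet2fl/fl cells the medians were -0.19 and -0.22, in the other order. A difference between these sets of genes was not tested. A match describes these letters and not a bound site.

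Between passage 2 and passage 10, most ribosome biogenesis and Myc target genes were lower in Tet2-/- cells. The median difference over the 32 members was -0.31, against 0.04 over all genes tested, and 31 of 32 differences were below 0, where 42.4% of all genes were. Nop58, Nop56, Gnl3 and Nop14 fell past an adjusted p of 0.05 over all genes. These are 4 of 32 members, where 1.73% of all genes fell. With the replicate number as a block, since arrays with the same number deviate together over all genes, 10 of 32 members fell, where 4.68% of all genes did. Over the members alone, same-numbered arrays correlated at -0.445 to 0.654 and others at -0.697 to 0.614, so those ranges overlap. In a fit limited to the 6 Tet2-/- arrays no gene passed, and the adjusted p was 0.0534 for Nop58 and Gnl3, 0.0633 for Nop56 and 0.0703 for Nop14. In 18 of 32 members all Tet2-/- arrays at passage 10 lay below all those at passage 2, against 12.9% of all genes. In a bulk sample of sorted cells, fewer cells of a type and less RNA per cell cannot be told apart.

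In Tet2fl/fl cells the same members had a median passage difference of -0.21, against 0.03 over all genes, and 31 of 32 lay below 0 (42.1% of all genes). None passed with or without the block, where 0% of all genes passed without the block and 0.0415% with it. At an unadjusted p under 0.05, 7 members were lower, against 4.5% of all genes, and 9 had groups that did not overlap, against 6.55%. The difference between both passage effects (the interaction) had a median of -0.15 over the members, from -0.25 without Tet2-/- p2 replicate 2 to -0.05 without Tet2-/- p2 replicate 3. No member passed for it (0% of all genes; 0.00593% with the block), and 3 had an unadjusted p under 0.05 (3.22% of all genes), Nop14, Nop58 and Gnl3. The passage effects of the members were therefore not shown to differ between the genotypes.

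**Figure D1:**
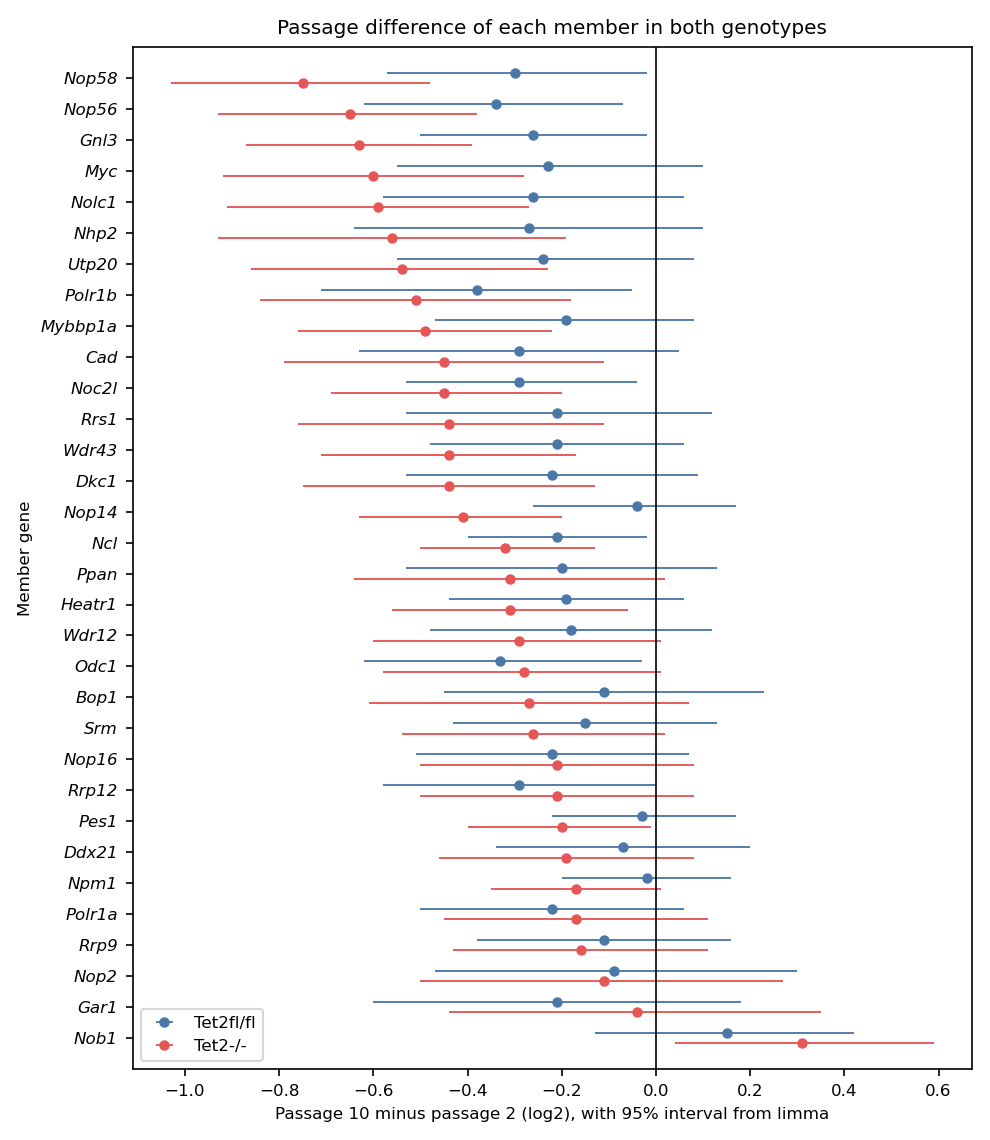
Passage 10 minus passage 2 for each of the 32 measured members (log2, horizontal axis), in Tet2fl/fl cells (blue) and Tet2-/- cells (red), with 95% intervals from limma. Nop58 (-0.75) to Nob1 (0.31) is the range in Tet2-/- cells, and all members but Nob1 lie below 0 in both genotypes.

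Averaged over both genotypes, 11 of 32 members fell (14 with the block), where 4.52% of all genes fell (7.28%), and none rose. They were Nop58, Gnl3, Nop56, Noc2l, Ncl, Polr1b, Nolc1, Myc, Mybbp1a, Utp20 and Wdr43, and the block added Nhp2, Polr1a and Cad. All 6 arrays of passage 10 lay below all 6 of passage 2 in 4 members, Nolc1, Nop56, Noc2l and Gnl3, against 2.25% of all genes. Nop58, Nop56 and Gnl3 passed in this contrast with any 1 of the 12 arrays left out. The count was 3 without replicate 1 or replicate 3 of the Tet2-/- p2 group or without Tet2fl/fl p2 replicate 3, and 4 without Tet2fl/fl p10 replicate 3, Tet2-/- p10 replicate 1 or Tet2-/- p10 replicate 3. It was 6 without Tet2fl/fl p2 replicate 2 or Tet2fl/fl p10 replicate 2 and 7 without Tet2-/- p10 replicate 2. Calls over all genes, 1310 in either direction with every array, were 358 to 947 in these 9 fits.

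Calls in Tet2-/- cells were lost when single arrays were left out, over all genes as among the members. No member passed without Tet2-/- p2 replicate 1, without Tet2-/- p2 replicate 3, or without any 1 of the 3 Tet2-/- arrays at passage 10, and 6 passed without Tet2-/- p2 replicate 2. Over all genes, 503 passed in either direction with every array, 387 without Tet2-/- p2 replicate 2, 2 without Tet2-/- p10 replicate 1 and 0 in the other 4 fits. The member median stayed between -0.43 and -0.23 over all 12 omissions. On Tet2-/- p2 replicate 3, 32 of 32 members were above their own mean over the 12 arrays, with a median deviation of 0.36, the highest of any array. On Tet2-/- p10 replicate 1, 1 of 32 was above, with a median deviation of -0.28, the lowest. Median deviations of the other Tet2-/- arrays were 0.16 and -0.02 at passage 2 and -0.11 and -0.18 at passage 10.

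**Figure D2:**
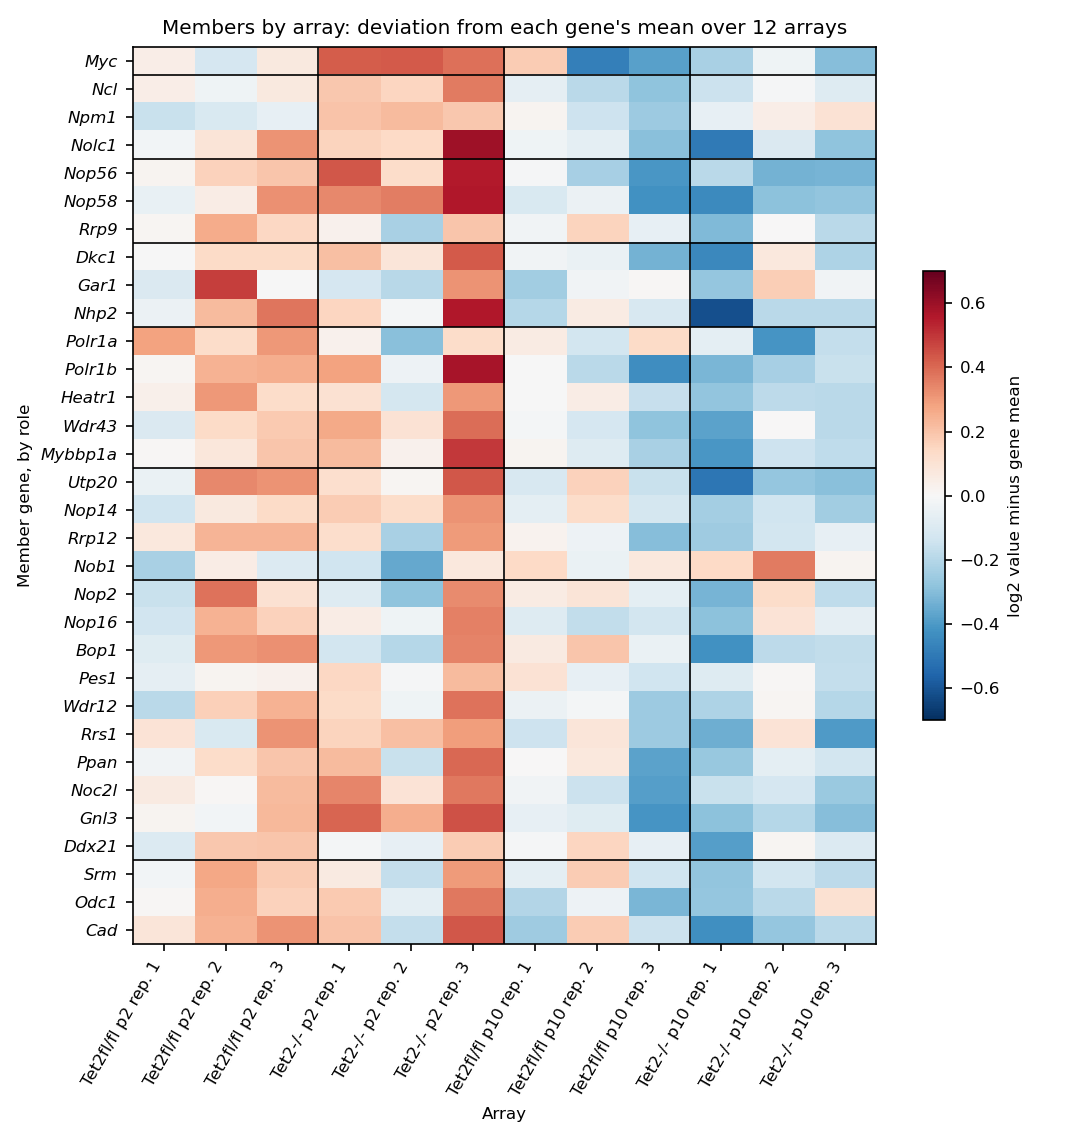
Deviation of each of the 32 members (rows, grouped by role) from its own mean over 12 arrays (columns, by group and replicate), in log2 units from blue (below) to red (above). Tet2-/- p2 replicate 3 is above the mean for all members and Tet2-/- p10 replicate 1 below it for all but 1, Nob1.

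Myc, the transcription factor at the head of the list, read 11.10, 11.11 and 11.06 at passage 2 and 10.45, 10.65 and 10.38 at passage 10 in Tet2-/- cells. In Tet2fl/fl cells it read 10.72, 10.56 and 10.74 at passage 2 and 10.85, 10.20 and 10.30 at passage 10. The Tet2-/- arrays at passage 2 were the highest of all 12 and lay within 0.05 of each other, and Tet2fl/fl p10 replicate 1 stood above its group. The passage difference in Tet2-/- cells was -0.60 ± 0.15, 1.52-fold lower (adjusted p = 0.0517; 0.0337 with the block), and in Tet2fl/fl cells -0.23 ± 0.15 (adjusted p = 0.603). Averaged over the genotypes Myc fell by 0.41 (adjusted p = 0.0376).

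Among nucleolar scaffold proteins and chaperones, Ncl (nucleolin) and Nolc1 fell in the averaged contrast, by 0.26 (adjusted p = 0.0289) and 0.42 (0.0351). Ncl read 11.12, 11.08 and 11.29 at passage 2 and 10.78, 10.92 and 10.84 at passage 10 in Tet2-/- cells and 10.97, 10.90 and 11.00 at passage 2 and 10.86, 10.74 and 10.65 at passage 10 in Tet2fl/fl cells, with no overlap between passages in either genotype. Nolc1, a chaperone of snoRNPs, read 8.57, 8.55 and 9.01 at passage 2 and 7.92, 8.31 and 8.13 at passage 10 in Tet2-/- cells and 8.39, 8.50 and 8.72 at passage 2 and 8.38, 8.34 and 8.12 at passage 10 in Tet2fl/fl cells. Its groups were apart in both genotypes, and its fall in Tet2-/- cells (-0.59 ± 0.15) passed only with the block (adjusted p = 0.0543 and 0.0363). Npm1 (nucleophosmin), chosen for mention after its values were seen, had small passage differences of -0.17 and -0.02.

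Nop58 and Nop56, core proteins of the box C/D snoRNPs, which guide methylation of ribosomal RNA, fell in Tet2-/- cells. Nop58 read 9.82, 9.84 and 10.04 at passage 2 and 9.04, 9.20 and 9.20 at passage 10 there, without overlap, a fall of 0.75 ± 0.13 or 1.69-fold (adjusted p = 0.0257). In Tet2fl/fl cells it read 9.43, 9.54 and 9.81 at passage 2 and 9.37, 9.44 and 9.06 at passage 10, with groups that overlapped and a difference of -0.30 (adjusted p = 0.461). Nop56 read 10.54, 10.23 and 10.66 at passage 2 and 9.92, 9.77 and 9.78 at passage 10 in Tet2-/- cells, without overlap, a fall of 0.65 ± 0.13 or 1.57-fold (adjusted p = 0.0313). Its Tet2fl/fl arrays read 10.12, 10.26 and 10.30 at passage 2 and 10.09, 9.87 and 9.70 at passage 10, also without overlap (-0.34, adjusted p = 0.431). Rrp9, a protein of the U3 snoRNP, differed by -0.16 and -0.11 in Tet2-/- and Tet2fl/fl cells. Taken as the mean of its rows in place of the brightest, Nop56 differed by -0.96 in Tet2-/- cells.

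Box H/ACA snoRNPs turn uridine into pseudouridine, and their protein Nhp2 fell in Tet2-/- cells with the block alone (-0.56 ± 0.17, adjusted p = 0.09 and 0.0311). Nhp2 read 9.14, 8.98 and 9.55 at passage 2 and 8.38, 8.80 and 8.80 at passage 10 in Tet2-/- cells and 8.95, 9.22 and 9.37 at passage 2 and 8.79, 9.05 and 8.88 at passage 10 in Tet2fl/fl cells. Only the Tet2-/- groups were apart. Dkc1 (dyskerin), the pseudouridine synthase, differed by -0.44 and -0.22, and Gar1 by -0.04 and -0.21, none past the threshold.

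The 5 genes of RNA polymerase I and early nucleolar transcription were all lower at passage 10, by a median of 0.44 in Tet2-/- and 0.21 in Tet2fl/fl cells. Polr1b, the second largest subunit, read 8.56, 8.25 and 8.86 at passage 2 and 7.96, 8.05 and 8.13 at passage 10 in Tet2-/- cells and 8.30, 8.52 and 8.53 at passage 2 and 8.27, 8.09 and 7.84 at passage 10 in Tet2fl/fl cells. It fell by 0.45 in the averaged contrast (adjusted p = 0.0326), with groups apart in both genotypes. Mybbp1a, a Myb-binding nucleolar protein, read 10.50, 10.31 and 10.78 at passage 2 and 9.87, 10.13 and 10.10 at passage 10 in Tet2-/- cells, where it fell with the block alone (-0.49 ± 0.12, adjusted p = 0.0563 and 0.0419). Its Tet2fl/fl arrays overlapped, at 10.29, 10.36 and 10.48 at passage 2 and 10.30, 10.19 and 10.05 at passage 10. Wdr43, a part of the early processome, read 10.30, 10.14 and 10.43 at passage 2 and 9.67, 10.04 and 9.85 at passage 10 in Tet2-/- cells and 9.94, 10.18 and 10.22 at passage 2 and 10.03, 9.92 and 9.75 at passage 10 in Tet2fl/fl cells, a fall of 0.32 in the averaged contrast (adjusted p = 0.0459). Polr1a had passage differences of -0.17 and -0.22, and fell in the averaged contrast with the block alone (-0.20, adjusted p = 0.189 and 0.0431).

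In small subunit maturation, Nop14 and Utp20 are processome proteins and Nob1 is the nuclease that makes the final cut of the small ribosomal RNA. Nop14 read 8.16, 8.12 and 8.30 at passage 2 and 7.75, 7.85 and 7.75 at passage 10 in Tet2-/- cells, without overlap, a fall of 0.41 ± 0.10 (adjusted p = 0.0462). In Tet2fl/fl cells it read 7.85, 8.05 and 8.12 at passage 2 and 7.92, 8.11 and 7.86 at passage 10, with overlap and a difference of -0.04 ± 0.10 (adjusted p = 0.903). The call of Nop14 was lost with equal array medians (adjusted p = 0.0799), quantile normalization (0.0609), no filter (0.0667) and the fit limited to the Tet2-/- arrays (0.0703). Utp20 read 8.55, 8.45 and 8.87 at passage 2 and 7.93, 8.16 and 8.14 at passage 10 in Tet2-/- cells, where it fell with the block alone (-0.54 ± 0.14, adjusted p = 0.0623 and 0.0293), and 8.39, 8.77 and 8.75 at passage 2 and 8.32, 8.60 and 8.28 at passage 10 in Tet2fl/fl cells. Nob1, named because it was the exception once values were seen, read 9.07, 8.85 and 9.28 at passage 2 and 9.35, 9.57 and 9.23 at passage 10 in Tet2-/- cells and 8.98, 9.26 and 9.11 at passage 2 and 9.35, 9.16 and 9.28 at passage 10 in Tet2fl/fl cells. Its differences of 0.31 ± 0.13 (adjusted p = 0.179) and 0.15 (0.697) were the only ones above 0 among the 32 members.

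All 10 genes of large subunit maturation had negative differences in both genotypes, with medians of -0.28 in Tet2-/- and -0.19 in Tet2fl/fl cells. Gnl3 (nucleostemin), a GTP-binding protein abundant in stem and progenitor cells, read 10.23, 10.07 and 10.27 at passage 2 and 9.53, 9.63 and 9.53 at passage 10 in Tet2-/- cells, a fall of 0.63 ± 0.11 or 1.55-fold (adjusted p = 0.0263). Its Tet2fl/fl arrays read 9.84, 9.81 and 10.05 at passage 2 and 9.76, 9.74 and 9.41 at passage 10, and the groups were apart in both genotypes (-0.26 in Tet2fl/fl, adjusted p = 0.461). Noc2l read 10.28, 10.03 and 10.30 at passage 2 and 9.78, 9.81 and 9.67 at passage 10 in Tet2-/- cells (-0.45 ± 0.11, adjusted p = 0.0534 and 0.0416 with the block) and 10.00, 9.94 and 10.16 at passage 2 and 9.91, 9.78 and 9.55 at passage 10 in Tet2fl/fl cells. Pes1, Bop1 and Wdr12, which form the PeBoW complex, differed in Tet2-/- cells by -0.20, -0.27 and -0.29, none past the threshold.

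The 3 enzymes outside the nucleolus had medians of -0.28 in Tet2-/- and -0.29 in Tet2fl/fl cells. Cad, which starts pyrimidine synthesis, read 9.23, 8.86 and 9.46 at passage 2 and 8.60, 8.76 and 8.84 at passage 10 in Tet2-/- cells and 9.11, 9.27 and 9.34 at passage 2 and 8.78, 9.21 and 8.87 at passage 10 in Tet2fl/fl cells. It fell in the averaged contrast with the block alone (-0.37, adjusted p = 0.062 and 0.0441). Odc1 (ornithine decarboxylase), the first enzyme of polyamine synthesis, differed by -0.28 and -0.33, and Srm (spermidine synthase) by -0.26 and -0.15, none past the threshold.

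**Figure D3:**
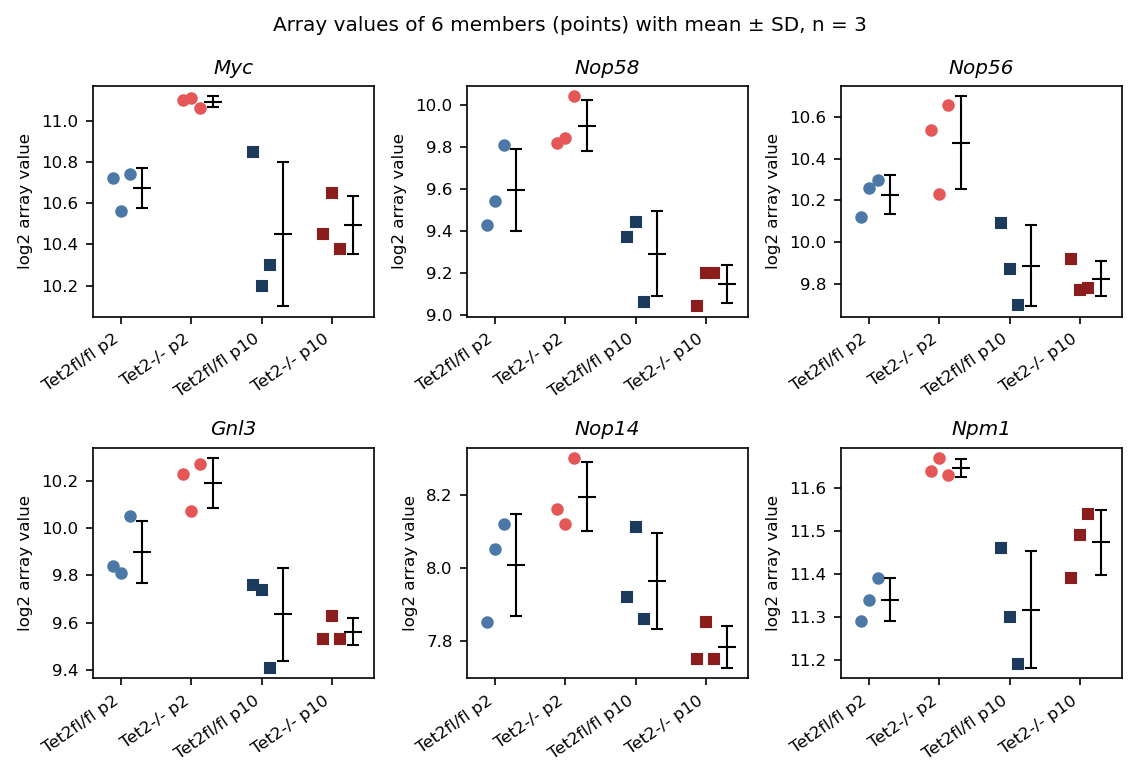
Log2 values of Myc, Nop58, Nop56, Gnl3, Nop14 and Npm1 on each array (points) by group, with mean ± SD to the right (n = 3), on vertical axes that differ by gene and do not start at 0. For Myc the Tet2-/- arrays at passage 2 lie at 11.06 to 11.11, above the other 9 arrays, whose highest value is 10.85.

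The genotype comparisons asked which members differed with loss of Tet2 early and late in culture. They share the Tet2-/- arrays with the passage comparison in Tet2-/- cells, so values are given side by side only. At passage 2 no member passed, with or without the block (0.00593% of all genes without it, 0.409% with it), and the member median was 0.07 against 0.00 over all genes. This median was below 0 without Tet2-/- p2 replicate 3 (-0.06) or Tet2fl/fl p2 replicate 1 (-0.03), and reached 0.17 without Tet2-/- p2 replicate 2. At an unadjusted p under 0.05, 5 members were higher (4.29% of all genes) and 1 lower (5.65%). The 5, Myc, Ncl, Npm1, Nop58 and Gnl3, were also the members whose Tet2-/- arrays all lay above the Tet2fl/fl arrays, as did 7.12% of all genes.

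Myc differed between the genotypes at passage 2 by 0.41 ± 0.15 (95% interval 0.09 to 0.74, adjusted p = 0.391) and at passage 10 by 0.04 ± 0.15 (-0.28 to 0.36, 0.966). Npm1, a histone chaperone of the nucleolus, read 11.29, 11.34 and 11.39 in Tet2fl/fl and 11.64, 11.67 and 11.63 in Tet2-/- cells at passage 2, and 11.46, 11.30 and 11.19 and 11.39, 11.49 and 11.54 at passage 10. At passage 2 its Tet2-/- arrays were all higher (0.31 ± 0.08, adjusted p = 0.223), and at passage 10 the groups overlapped (0.16, 0.553). Differences at passage 2 were 0.31 for Nop58, 0.29 for Gnl3 and 0.20 for Ncl, with adjusted p-values of 0.445, 0.405 and 0.466.

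At passage 10 no member passed with or without the block (0.225% of all genes without it, 1.31% with it), and 24 of 32 differences were below 0 (52.6% of all genes), with a median of -0.07. At an unadjusted p under 0.05, 1 member was lower, Utp20, against 6.01% of all genes. Heatr1, Utp20, Nop14 and Bop1 had all Tet2-/- arrays below the Tet2fl/fl arrays, against 9.8% of all genes. Their differences were -0.18, -0.32, -0.18 and -0.33.

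Polr1a, the largest subunit of RNA polymerase I, read 9.42, 9.10 and 9.52 at passage 2 and 9.32, 8.98 and 9.22 at passage 10 in Tet2-/- cells and 9.67, 9.52 and 9.69 at passage 2 and 9.44, 9.26 and 9.52 at passage 10 in Tet2fl/fl cells. Averaged over both passages it was lower in Tet2-/- cells by 0.26 ± 0.09 (adjusted p = 0.18), and with the block this passed (0.0268), as it did for no other member. For this average 1.72% of all genes passed, and 5.41% with the block, and 4 members had an unadjusted p under 0.05 (16.1% of all genes). Mast cell and basophil markers differed between the genotypes too, with array means (10 of 10 measured) of 11.51 to 11.58 in Tet2fl/fl and 10.86 to 11.04 in Tet2-/- cells at passage 2 and 11.46 to 11.79 and 10.61 to 11.02 at passage 10. Eosinophil markers (5 of 7 measured) were at 9.57 to 9.94 and 7.96 to 8.28 at passage 2 and overlapped at passage 10. Single mast cell and basophil markers differed by -2.48 to 0.00 at passage 2 (median -0.38) and by -2.98 to 0.05 at passage 10 (median -0.36). At each passage 9 of these 10 were below 0. Single eosinophil markers differed by -2.96 to 0.07 at passage 2, with 4 of 5 below 0. The part of these markers in the genotype differences was not tested.

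Other genes of the pathway, from lists that exclude the members, were lower with passage in Tet2-/- cells as well. These lists and those below were chosen with earlier results of these data known, so they are not an independent check. Of 106 measured genes of ribosome biogenesis (of 114 named), 12 fell (1.73% of all genes) and none rose, 24 fell (4.68%) and 1 rose with the block, and 92 differences were below 0 (42.4%), with a median of -0.26. The processome list held 6 of these, among them Dimt1, a methyltransferase of the small ribosomal RNA (-0.73 ± 0.11, adjusted p = 0.0224), and Krr1 (-0.51, 0.029), beside Mphosph10, Nat10, Wdr36 and Snu13, a further core protein of box C/D snoRNPs (-0.38, 0.0409). Dimt1 read 9.39, 9.34 and 9.53 at passage 2 and 8.75, 8.63 and 8.69 at passage 10 in Tet2-/- cells and 9.01, 9.12 and 9.39 at passage 2 and 8.90, 8.92 and 8.65 at passage 10 in Tet2fl/fl cells, with passages apart in both genotypes. The large subunit list held 5, including the giant ATPase Mdn1 (-0.64, adjusted p = 0.0437) and the export adaptor Nmd3 (-0.56, 0.0356), beside Nvl, Spata5 and Tex10. The last was Shq1, an assembly factor of box H/ACA snoRNPs (-0.57, 0.0295). Of 19 further genes of RNA polymerases I and III none passed in this contrast (2.98% of all genes in either direction), with a median of -0.08. In Tet2fl/fl cells 84 of the 106 differences were below 0 (42.1% of all genes), with a median of -0.10. None of the 106 passed there with or without the block (0% of all genes without it, 0.0415% with it). In the averaged contrast Maf1, a repressor of RNA polymerase III, rose by 0.27 (adjusted p = 0.0397).

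Cytosolic ribosomal proteins, the building blocks of the ribosome, had passage differences centred near 0. Of 61 measured cytosolic ribosomal proteins (of 81 named) none passed in Tet2-/- cells without the block, Rpl6 and Rpl26 fell with it (4.68% of all genes), and their median passage difference was -0.02 there and 0.03 in Tet2fl/fl cells. In 12 of the 61 all Tet2-/- arrays at passage 10 lay below those at passage 2 (12.9% of all genes), and in the averaged contrast Rpl6, Rpl26 and Rps23 fell (4.52%). Their levels were spread widely, with a mean above 12 for 16 genes, where the highest value on an array was 13.52 to 13.61, and below 7 for 13. The 32 genes between had a median of -0.03 in Tet2-/- cells and the 16 above had 0.00. Whether rows at either end could show a difference was not tested, nor was a difference between this list and the members. Among 24 translation factors 3 fell in Tet2-/- cells (1.73% of all genes), Eef1e1 (-0.61), Eif2b3 (-0.50) and Eif2s2 (-0.46), with a median of -0.08 for the list. Its median in Tet2fl/fl cells was -0.01.

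Of 26 other well known Myc targets 5 fell in Tet2-/- cells (1.73% of all genes), Ranbp1 (-0.63 ± 0.11, adjusted p = 0.0272), C1qbp (-0.55), Set (-0.47), Ran (-0.41) and Srsf1 (-0.40), with a list median of -0.35. In each genotype 21 of the 26 differences were below 0, against 42.4% of all genes in Tet2-/- and 42.1% in Tet2fl/fl cells. The Tet2fl/fl median of this list was -0.20, and none of it passed there with or without the block. Of 21 nucleotide and polyamine genes 2 fell in Tet2-/- cells (1.73% of all genes), the CTP synthase gene Ctps (-0.69, adjusted p = 0.0426) and the purine enzyme gene Ppat (-0.61, 0.0356). The median of these 21 was -0.24 in Tet2-/- and -0.15 in Tet2fl/fl cells. In the list of 18 genes of the MYC network none passed in Tet2-/- cells without the block (2.98% of all genes in either direction). Mxd4, which competes with Myc for its partner Max, read 9.15, 9.21 and 9.49 at passage 2 and 9.64, 10.05 and 9.74 at passage 10 in Tet2-/- cells and 9.48, 9.75 and 9.70 at passage 2 and 9.80, 10.08 and 10.11 at passage 10 in Tet2fl/fl cells. Its passage 10 arrays were above those of passage 2 in each genotype, and it rose in the averaged contrast by 0.44 ± 0.10 (adjusted p = 0.0241), and in Tet2-/- cells with the block (0.53, 0.0612 and 0.0183). Of 14 genes of p53 and nucleolar stress, Ddit4 rose in Tet2-/- cells, where 211 of all 16860 genes rose. With the block Bbc3 rose there too and Mdm4 fell, where 550 of all genes rose and 789 fell. In the averaged contrast Ddit4, Bbc3 and Trp53inp1 rose and Mdm4 fell, where 548 of all genes rose and 762 fell. Ddit4, a growth inhibitor induced by stress, read 9.69, 9.67 and 9.14 at passage 2 and 10.57, 10.77 and 10.51 at passage 10 in Tet2-/- cells (1.12 ± 0.17, adjusted p = 0.0224). It read 9.42, 9.22 and 9.01 at passage 2 and 10.05, 9.68 and 10.06 at passage 10 in Tet2fl/fl cells, without overlap (0.71, 0.401).

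**Figure D4:**
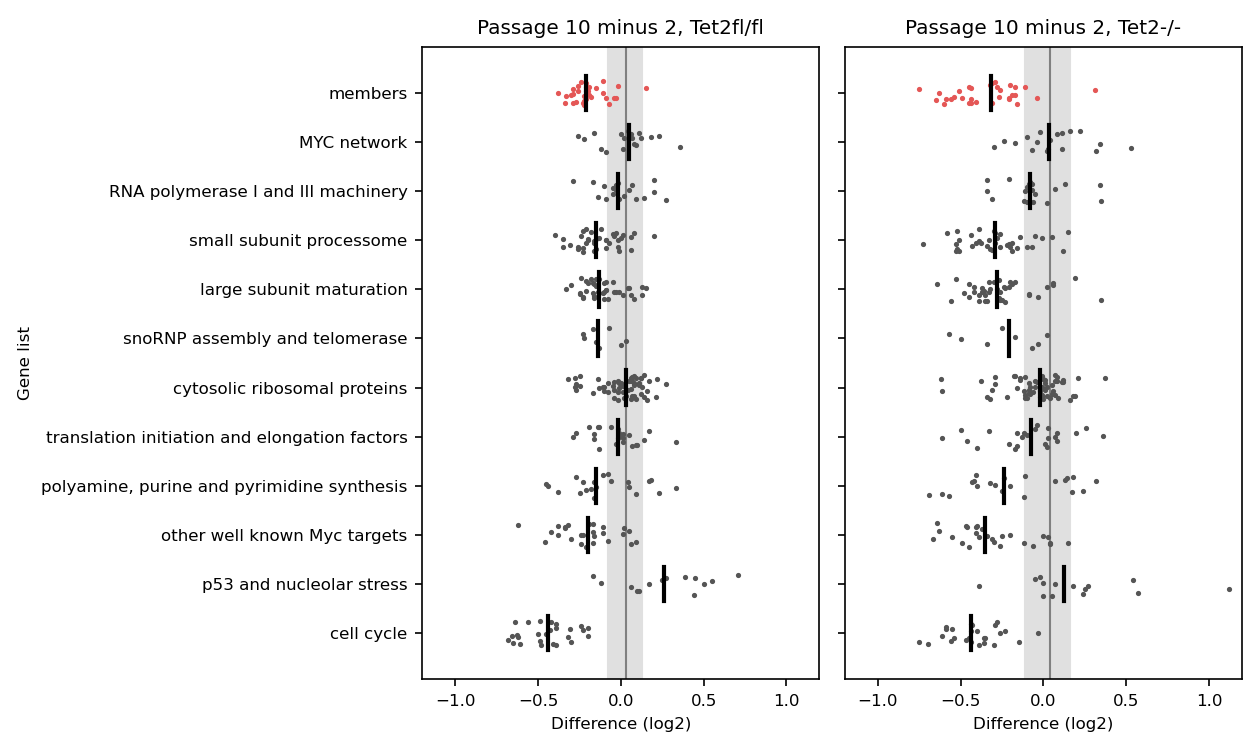
Passage 10 minus passage 2 (log2) for each measured gene (points) of the members and of 11 related lists, in Tet2fl/fl cells (left) and Tet2-/- cells (right), with each list's median as a black bar. The grey band spans the middle 50% of all 16860 genes around their median. The median of the members is -0.21 on the left and -0.31 on the right, and that of cytosolic ribosomal proteins 0.03 and -0.02.

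Cell cycle genes moved with passage as well. All 26 measured (of 28 named) had negative differences in both genotypes, with medians of -0.43 in Tet2-/- and -0.44 in Tet2fl/fl cells. In Tet2-/- cells 2 fell (1.73% of all genes), Bub1 and Tyms, and 13 with the block (4.68%), and in the averaged contrast 16 fell (4.52%). In Tet2fl/fl cells none passed without the block and 3 fell with it, where 0% and 0.0415% of all genes passed in either direction. All passage 10 arrays lay below all passage 2 arrays for 23 of the 26 genes in Tet2fl/fl cells (6.55% of all genes). In Tet2-/- cells this held for 10 of the 26 (12.9%). Array means of the list were 9.62 to 10.15 at passage 2 and 9.29 to 9.64 at passage 10 in Tet2-/- cells, and 9.69 to 9.97 and 9.28 to 9.46 in Tet2fl/fl cells. Tet2-/- p2 replicate 3 was highest for this list and for the members. Means of the 10 markers of maturing neutrophils were 8.0 to 8.67 and 7.24 to 7.76 in Tet2-/- cells, and 7.80 to 9.13 and 6.78 to 8.21 in Tet2fl/fl cells. Single markers went both ways in Tet2-/- cells, with 7 passage differences below 0 and 3 above, from -2.72 to 1.15. In Tet2fl/fl cells all 10 were below 0. Megakaryocyte markers (5 of 6 measured) were at 7.68 to 8.0 and 8.14 to 8.80 in Tet2-/- cells, and at 7.80 to 7.90 and 8.23 to 8.80 in Tet2fl/fl cells. Means of the 12 genes listed for the sorted immature myeloid cells, Itgam and Ly6g included, were 10.06 to 10.28 and 10.02 to 10.06 in Tet2-/- cells. In Tet2fl/fl cells they were 10.01 to 10.40 and 9.53 to 10.42. Single genes of this list went both ways, with 6 passage differences below 0 and 6 above in each genotype. These ran from -1.69 to 1.15 in Tet2-/- cells and from -1.38 to 0.28 in Tet2fl/fl cells. The part of these lists in the members' fall was not tested.

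**Figure D5:**
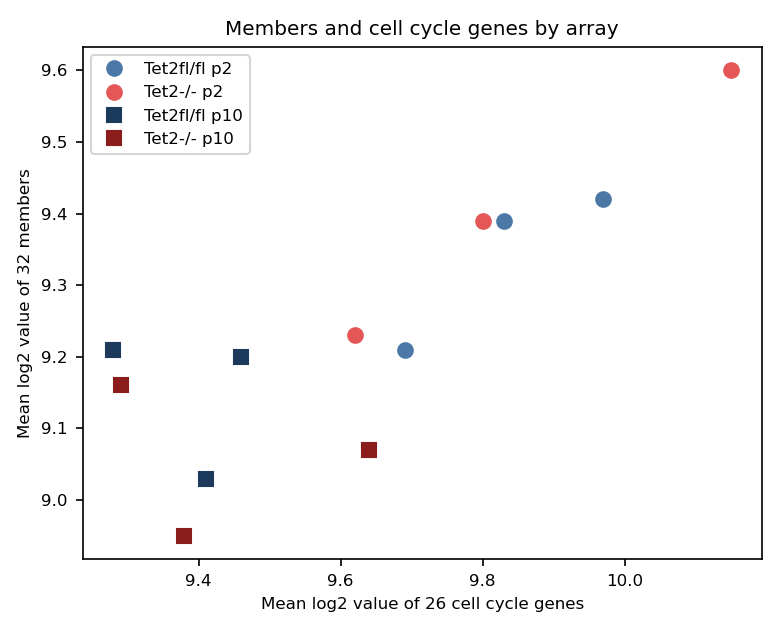
Mean log2 value of the 32 members (vertical) against that of 26 cell cycle genes (horizontal) on each of the 12 arrays, by genotype (colour) and passage (circles for passage 2, squares for passage 10). Tet2-/- p2 replicate 3 is highest on both axes, at 9.60 and 10.15, and Tet2-/- p10 replicate 1 is lowest for the members, at 8.95.

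Most members varied together from array to array. Over the 12 arrays, which share groups and normalization, the correlation of a member with the mean of the others had a median of 0.862, from -0.257 for Nob1 to 0.97 for Mybbp1a. On deviations from group means the median was 0.842, with 0.688 for Nob1, 0.0918 for Myc and 0.0455 for Polr1a. Nob1 thus followed the other members within groups but not over all 12 arrays, and Myc the reverse (0.592 over all 12). With Myc itself the members correlated at a median of 0.514, with Ncl highest at 0.885 and Nob1 lowest at -0.365. Over all genes tested, those most like Myc across the 12 arrays were Strbp, Snhg7, Mtpap, the row annotated Mir181a-2 and Guf1, at 0.941 to 0.928. Most like the mean of the members were Adpgk, Atic, Nol9, Tarbp1 and Prmt3, at 0.986 to 0.974.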

How the data were processed

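Each of 12 samples (100 ng of RNA) was run on a GeneChip Mouse Gene ST 2.0 array. The authors deposited log2 values made by RMA in Affymetrix Power Tools, per the submitters' processing notes, with versions not given in the sources used here. RMA scales arrays to a common distribution, so a change of all RNA per cell would not show.

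Of 41345 rows, 28941 had a mean at or above the 30th percentile (log2 4.70), 17828 of them with 1 gene symbol. Symbols came from the probe annotation, updated by gene ID for 23328 of 23521 rows with 1 symbol (1814 had several, 16010 none). The row of highest mean stood for a gene. A mean per group was fitted to 16860 genes with limma 3.58.1 in R 4.3.3 (8 residual and 3.33 prior degrees of freedom). P-values are two-sided and adjusted by Benjamini and Hochberg over all genes within a contrast, with 0.05 as the threshold. Beside both genotype and both passage contrasts and their interaction, the genotype and passage effects were averaged.

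Replicate numbers, taken from the labels, were checked for pairing on deviations from group means over all genes. Arrays with the same number correlated at 0.201 to 0.517 (18 pairs) and others at -0.369 to 0.0532 (36 pairs). Over the members alone the ranges overlapped. A fit that blocks on the number, with 6 residual and 3.93 prior degrees of freedom, is given where it changes a call.

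Members named with full values passed in 1 of the contrasts in either fit or had the smallest p of their role, with Myc always named. The members and the lists were chosen with earlier results of these data known. The other settings tried were arrays set to equal medians, quantile normalization, the filter dropped or moved to the 50th percentile, the block, array weights, the mean of a gene's rows, a fit limited to the arrays being compared, and each array left out. Leaving out a replicate number in every group was added after seeing the data. The fit was tested on simulated data with noise drawn independently for each gene and array. Those data lack the shared deviations of same-numbered arrays, so they do not test the fit under that pairing. Promoters are from RefSeq (GRCm38.p6), searched on both strands.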

Additional observations from a re-analysis of the deposited data

How the results depend on the processing

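The median difference of the members moved by less than the spread of the array medians within groups (SD 0.18) under every alternative run, in all contrasts. That spread exceeds the size of the medians for genotype at passage 2 (0.07) and passage 10 (-0.07). It also exceeds those for the interaction (-0.15) and the averaged genotype effect (0.01), so in these contrasts it is a weak test of stability. At passage 2 the median genotype difference (0.07) turned to -0.06 without Tet2-/- p2 replicate 3 and -0.03 without Tet2fl/fl p2 replicate 1. Counts of members that passed moved more, and calls over all genes moved with them. For passage in Tet2-/- cells (4 members, 2.98% of all genes in either direction) the count was 10 when blocking on the replicate number (7.94%), 10 with the filter moved to the 50th percentile (6.03%), 15 with array weights (10.2%) and 0 in a fit limited to the arrays being compared (0%). Over omissions of 1 array it ran from 0 to 6, and that of all genes from 0 to 483. For the averaged passage effect (11, 7.77%) it was 5 with equal array medians (6.75%) and 3 to 15 over the omissions (358 to 1365 of all genes). Without replicate number 1, 2 or 3 in every group, an alternative added after seeing the data, both counts were 0, with 2 arrays per group left and at most 6 of all genes called. For the averaged genotype effect (0) the count was 1 with array weights, with the replicate block and with the filter moved to the 50th percentile, and 0 to 2 over the omissions (Myc and Npm1 without Tet2fl/fl p10 replicate 1).

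Signs of single members were followed only for those that passed in either fit, and not in every contrast. Among these, differences near 0 changed sign in 3 members. For Nop14 the averaged genotype effect (0.00) was -0.04 with equal array medians, -0.02 with array weights, -0.04 and -0.01 without replicate 1 or 3 of every group and -0.04 to 0.04 over the omissions, and the passage difference in Tet2fl/fl cells (-0.04) was 0.00 with quantile normalization, 0.07 without replicate 3 of every group and -0.12 to 0.02 over the omissions. For Myc at passage 10 the genotype difference (0.04) was -0.16 without replicate 2 of every group and -0.09 to 0.24 over the omissions, and for Gnl3 (-0.08) it was 0.00 without replicate 1 of every group. The cause of these changes was not tested. The replicate block changed no other call of a member than those given above. The 3 arrays per group limit what could pass.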
